A study of Homo sapiens with 4 samples.

Results

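The 10 genes BTBD9, SKOR1, MAP2K5, PTPRD, TOX3, PRMT6, CRBN, MYT1, CCDC148 and SETBP1 have been linked to restless legs syndrome (RLS), as has MEIS1 itself, and were examined here for MEIS binding in human neural stem cells (hNSC). They were chosen by name, as 10 of the 20162 protein-coding genes of GENCODE 44 on GRCh37 (hg19), and each was examined over its gene body extended by 250 kb on either side. Within these windows lay 22 of the 5169 reproducible sites of the series, 142 of the 36796 peaks of replicate 1 and 190 of the 47449 peaks of replicate 2.

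The data are ChIP-seq profiles of untreated hNSC, a commercially supplied culture grown in serum-free medium on a coated surface, with 2 MEIS ChIP samples and 2 Input samples of sheared chromatin. Both ChIP samples were precipitated with the same mix of the antibodies K830, named anti-MEISa in the labels and anti-MEIS1/2A in the methods, and K844, named anti-MEIS1, so a peak does not say which MEIS protein was bound. The methods describe parallel processing of 2 batches of cells and alternative bead washes, neither assigned to a replicate, so a difference between the replicates and a difference between washes cannot be told apart. A peak is a stretch with more ChIP than input fragments, and its summit is the base of highest enrichment; its strength is given as fold enrichment over input and as −log10 p, which is larger for stronger peaks. A reproducible site is an entry of the authors' list of places found reproducible between the replicates, selected by the irreproducible discovery rate (IDR). Peak lists hold no RNA levels and no read counts, so the labelled cell type was taken as given and the depth behind each list is unknown.

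RLS is a sensorimotor disorder with an urge to move the legs at rest, for which common variants near MEIS1 are among the best known genetic factors. MEIS proteins are TALE homeodomain transcription factors that bind the hexamer TGACAG, often together with PBX proteins, and mostly at enhancers far from promoters. The 10 genes are of several kinds: SETBP1, SKOR1, TOX3, PRMT6 and MYT1 encode nuclear proteins that act on chromatin or transcription, MAP2K5 and PTPRD encode signalling proteins, and BTBD9 and CRBN encode substrate adaptors of ubiquitin ligases.

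TGACAG was present on either strand within 500 bp centred on the summit at 13 of the 22 sites (59.1%, Wilson 95% confidence interval 38.7 to 76.7), next to 58.3% of all reproducible sites. At 9 of the 22 sites (40.9%, all sites 39.6%) it was centred no more than 50 bp from the summit. These 9 sequences are shown because the motif lies close to the summit in them. Each is 60 bases of the GRCh37 reference, read on the strand that carries TGACAG and ordered from the strongest site to the weakest, with the hexamer nearest the summit in capitals and its distance from the summit after the name.
SKOR1/MAP2K5 distal site, 33 bp, chr15:68234160-68234219, minus strand: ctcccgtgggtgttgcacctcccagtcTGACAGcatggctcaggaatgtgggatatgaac
SETBP1 intron 2, 4 bp, chr18:42304712-42304771, plus strand: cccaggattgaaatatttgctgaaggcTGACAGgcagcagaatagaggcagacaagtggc
CRBN upstream site, 32 bp, chr3:3435363-3435422, minus strand: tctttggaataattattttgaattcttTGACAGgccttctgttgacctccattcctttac
PTPRD intron 12, 1 bp, chr9:8652404-8652463, plus strand: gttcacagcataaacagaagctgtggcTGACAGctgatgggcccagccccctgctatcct
CCDC148 intron 11, 9 bp, chr2:159071136-159071195, minus strand: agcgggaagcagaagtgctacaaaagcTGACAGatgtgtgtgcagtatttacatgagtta
BTBD9 intron 8, 1 bp, chr6:38249117-38249176, plus strand: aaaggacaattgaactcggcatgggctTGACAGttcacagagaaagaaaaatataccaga
SETBP1 downstream site, 2 bp, chr18:42699988-42700047, plus strand: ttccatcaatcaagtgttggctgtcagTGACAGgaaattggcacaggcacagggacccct
PRMT6 upstream site, 9 bp, chr1:107411594-107411653, plus strand: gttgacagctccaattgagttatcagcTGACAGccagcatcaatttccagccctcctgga
PTPRD intron 11, 10 bp, chr9:8785035-8785094, plus strand: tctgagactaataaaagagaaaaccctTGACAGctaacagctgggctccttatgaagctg
In the site downstream of SETBP1, the capitals stand 1 base after a second copy on the opposite strand, and the PRMT6 stretch begins with another copy on the same strand.

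Of the 10 genes, 9 had at least 1 reproducible site within 250 kb, whereas 47.5% of all protein-coding genes did by the same rule. The count depends on gene length, because long genes have long windows, so each gene was set beside the 200 protein-coding genes nearest to it in body length. Of these like-length genes, the share with at least 1 site ran from 38.0% for PRMT6 to 83.5% for PTPRD. SETBP1 (7 sites) and SKOR1 (4 sites) stood highest: 3.5% and 2.0% of their like-length genes had as many sites or more. None of the SKOR1 sites lay in the SKOR1 body, and with windows of 100 kb SKOR1 had none. For MAP2K5, with the same 4 sites as SKOR1, the share was 8.0%, and for BTBD9, with 4 sites, it was 18.5%. CCDC148 with 2 sites (41.5%) and PRMT6 (38.0%), TOX3 (44.5%) and CRBN (49.0%) with 1 site each lay above a median of 1 or 0, where a single additional site decides the side. PTPRD had 2 sites against a median of 3, and MYT1 had 0 against a median of 1. In all, 8 genes lay above and 2 below the median of their like-length genes, with SKOR1 and MAP2K5 both counted on the same 4 sites. With windows of 100 kb, 6 genes had a site and 4 lay above the median, and 5 lay above it with sites of an IDR no higher than 0.001. No test was made of these counts, since a site count has no replicate and sites are not replicates of a condition.

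**Figure D1:**
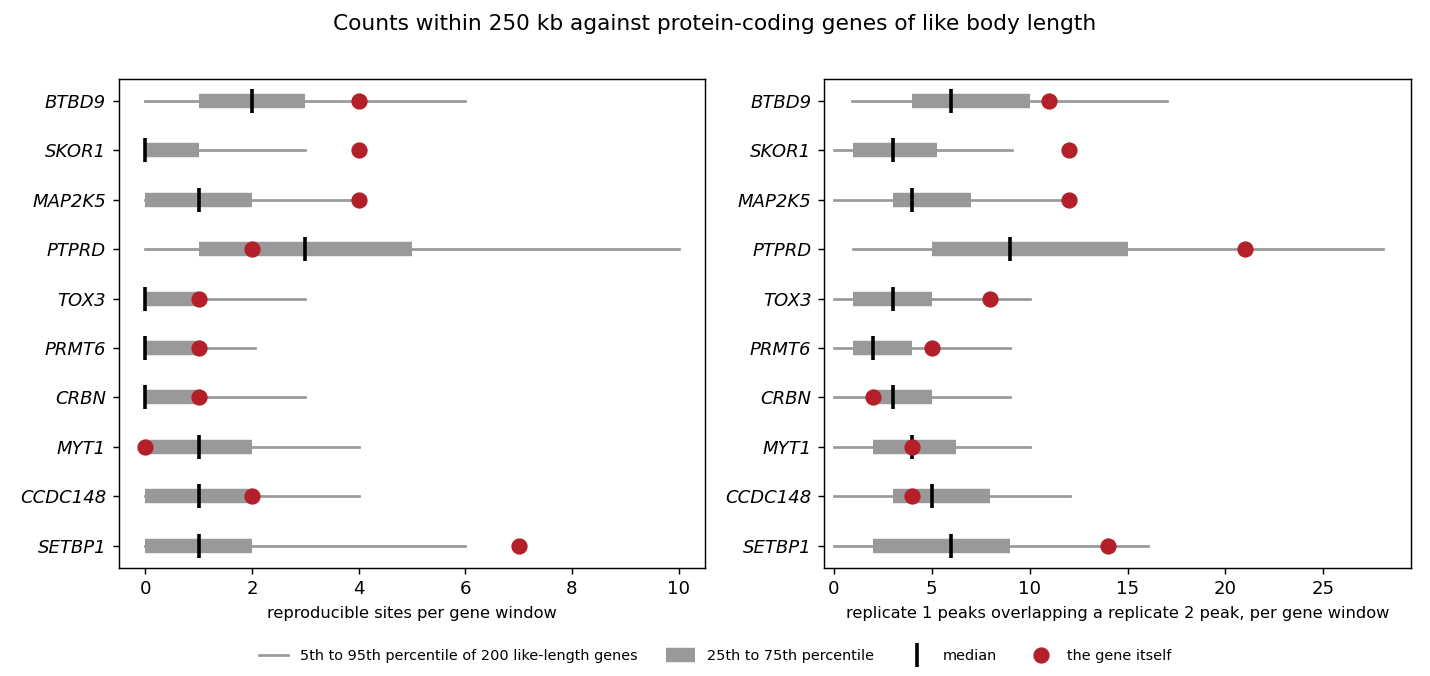
Number of reproducible sites (left) and of replicate 1 peaks that overlap a replicate 2 peak (right) in the window of each gene (red points), over the 5th to 95th percentile (thin line), the 25th to 75th percentile (thick bar) and the median (black tick) of 200 genes of like body length. SETBP1 and SKOR1 lie beyond the 95th percentile for sites, PTPRD and MYT1 lie below the median for sites, and PTPRD, with 21 overlapping peaks, lies above the median of 9 on the right.

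The comparison with like-length genes is drawn for both kinds of count. Every one of the 10 genes had a peak of each replicate in its window, as did 96.8% of all protein-coding genes for replicate 1 and 97.7% for replicate 2, so the presence of a peak did not set them apart. Of the 142 replicate 1 peaks in the windows, 82 (57.7%, Wilson 95% confidence interval 49.5 to 65.6) overlapped a replicate 2 peak, next to 49.0% of all replicate 1 peaks, and of the 190 replicate 2 peaks 83 (43.7%, 36.8 to 50.8) overlapped a replicate 1 peak, next to 38.0%. The peaks in the windows were also stronger, with a median −log10 p of 5.86 (all peaks 4.78) in replicate 1 and 5.38 (4.68) in replicate 2. At a −log10 p of at least 5, 80.5% of the replicate 1 peaks in the windows overlapped. Whether strength accounts for the higher shares was not tested. By status, 22 replicate 1 peaks belonged to a reproducible site, 60 overlapped a replicate 2 peak but were not in the list, and 60 were seen in replicate 1 only. In replicate 2 these numbers were 22, 61 and 107. Among the replicate 1 peaks, TGACAG was present in 60% (47.4 to 71.4, all such peaks 51.3%) of those shared but not listed, in 35% (24.2 to 47.6, all 38.5%) of those seen once and in 54.5% (34.7 to 73.1, all 58.5%) of those in a site. Among the replicate 2 peaks, the classes lay closer together, with 55.7% (43.3 to 67.5, all 51.5%), 48.6% (39.3 to 58.0, all 41.4%) and 54.5% (34.7 to 73.1, all 58.1%), and each interval included the share over all peaks of its class.

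**Figure D2:**
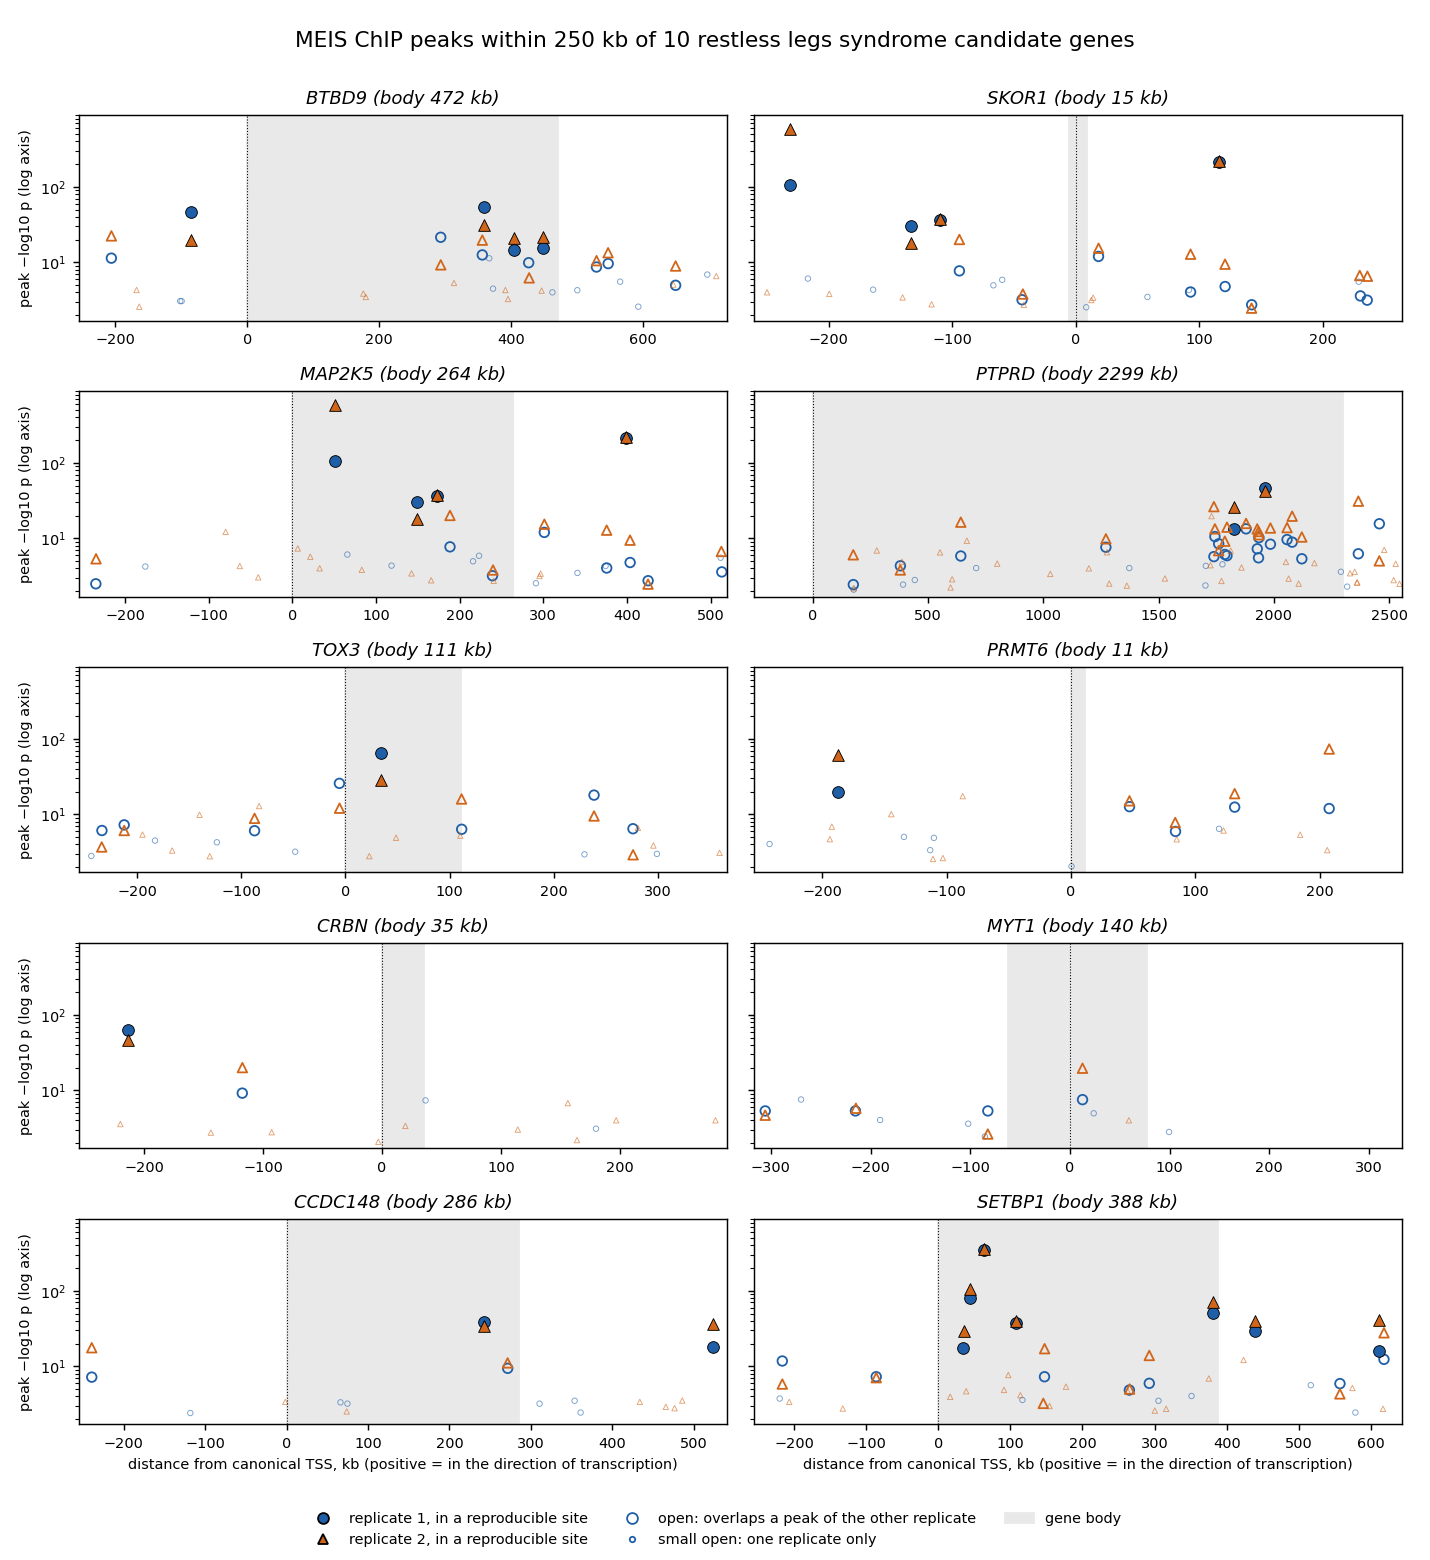
Peaks in the window of each of the 10 genes, with the distance of the summit from the canonical transcription start site (TSS) in kb on the x axis (positive in the direction of transcription) and −log10 p on a log y axis; circles are replicate 1, triangles replicate 2, filled symbols belong to reproducible sites, large open symbols overlap a peak of the other replicate, small open symbols were seen once, and grey marks the gene body. The filled symbols of SETBP1 gather in the first 107 kb of the gene and around or beyond its 3′ end, SKOR1 has filled symbols on both sides but none in its body, and MYT1 has none.

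The map of the windows shows the peaks of each gene by position and strength. None of the 22 sites lay within 5 kb of the canonical TSS of a protein-coding gene (0%, Wilson 95% upper bound 14.9%), next to 8.43% of all sites, and 1 lay within 20 kb (all sites 18.0%). The median distance to the nearest coding TSS was 123 kb (range 10.2 to 985), and 100 kb over all sites. Inside an intron of one of the 10 genes lay 15 sites. Inside any coding gene body lay 18 (81.8%, all sites 51.0%), a share that windows built around gene bodies raise by construction. At least 1 site in the body itself was found in 6 genes, BTBD9, MAP2K5, PTPRD, TOX3, CCDC148 and SETBP1, which are the longer ones apart from MYT1, and in 8.33% of all protein-coding genes of any length.

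A peak within 1 kb of the canonical TSS was called at 1 of the 10 genes in replicate 1 (17.1% of all genes) and at 0 of 10 in replicate 2 (15% of all genes). The 1 was PRMT6, where a replicate 1 peak had its summit in the coding exon, 467 bp from the TSS. With a −log10 p of 2.05 it was among the weakest 0.334% of that list, and replicate 2 had no peak there.

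In strength, the 22 sites covered the range of the list. Their median −log10 p was 30.1 (all sites 29.3), and ranked from weakest to strongest among all 5169 sites they took percentiles from 2.02 to 97.1 with a median of 51.3. Divided at the quartiles of the list, 7, 4, 7 and 4 sites fell in each class, from weakest to strongest. The median fold enrichment was 7.20 for replicate 1 (range 3.72 to 29.6, all sites 6.38) and 10.7 for replicate 2 (6.58 to 88.6, all sites 11.5). Replicate 1 had the higher fold at 2 of the 22 sites, next to 2.57% of all sites, and the ratio of replicate 2 to replicate 1 had a median of 1.82, next to 1.80 over the list. Between replicates, the −log10 p correlated with a Spearman coefficient of 0.625 over the 22 sites and 0.779 over all 5169, which share the same libraries. Summits of the replicates lay a median of 13.5 bp apart (0 to 121), and 11 bp over the list.

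**Figure D3:**
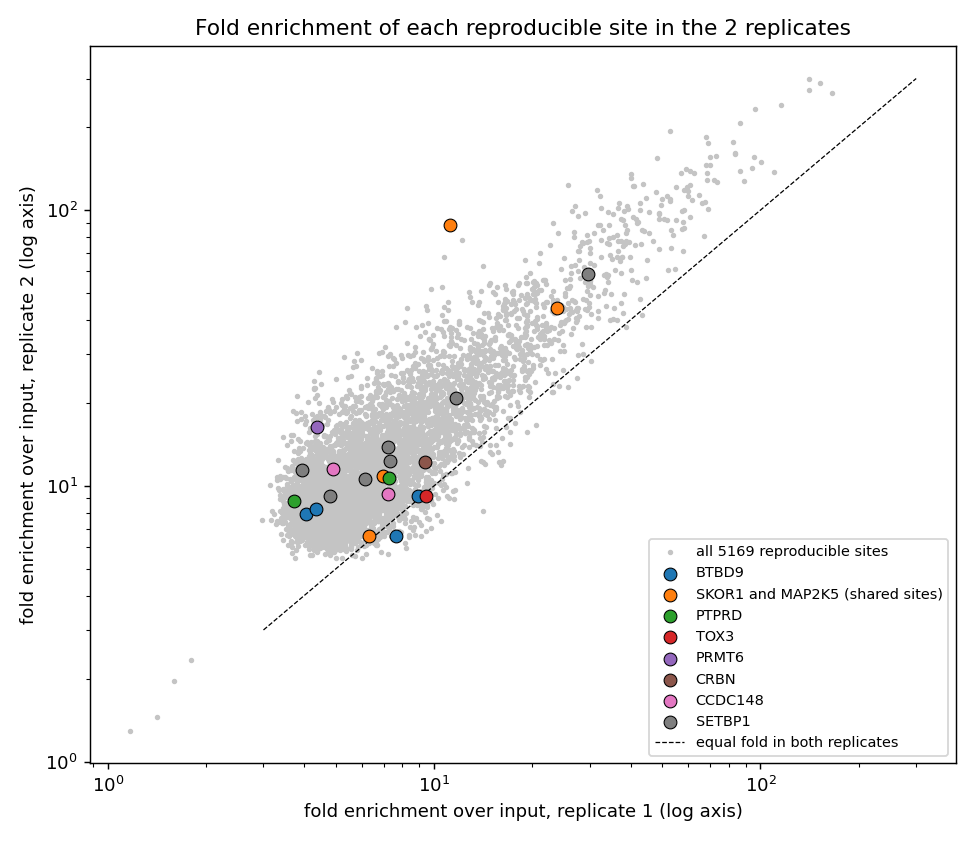
Fold enrichment over input in replicate 1 (x axis) and replicate 2 (y axis), both log axes, for all 5169 reproducible sites (grey) and the 22 sites at the genes (coloured by gene), with a dashed line of equal fold. Most sites lie above the line, and 1 site in MAP2K5 stands apart at 11.2 and 88.6, a ratio of 7.90.

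The plot of fold enrichment in both replicates shows the 2 sites on or below the line, at TOX3 and upstream of BTBD9. It also shows the site in MAP2K5 at the upper edge of the grey points.

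SETBP1 (ENSG00000152217, chromosome 18 from 42260138 to 42648475, plus strand) encodes a nuclear protein that binds the oncoprotein SET. Its 7 sites were the most of the 10 genes, and 4 of them lay together in intron 2, at 35, 43.9, 64.1 and 107 kb downstream of the TSS. The strongest of the 22 sites was among these 4. On chromosome 18 from 42323821 to 42325660, it ranked 152 in the list, and its −log10 p reached 348 (replicate 1) and 358 (replicate 2), with folds of 29.6 and 58.4. The second site in the intron, from 42303435 to 42305215 at rank 925, had a −log10 p of 79.2 and 104 and a fold of 11.6 and 20.8, and holds the TGACAG printed above 4 bp from its summit. A further intron 2 site, from 42367841 to 42368757 at rank 1988, had 37.9 and 40.2, close in both replicates.

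Near the 3′ end of SETBP1, a site in intron 5 from 42640742 to 42642104 (rank 1472) had a −log10 p of 51.1 and 70.8. Beyond the gene by 51.5 kb, the site from 42699429 to 42700407 (rank 2599) had 29.0 and 40.1, with the summits of the replicates at the same base and the paired TGACAG copies around it. All of these SETBP1 sites were higher in replicate 2. The other 2 sites, the one in intron 2 closest to the TSS and 1 in the body of SLC14A2, were weak, with a −log10 p of the list from 15.8 to 17.4.

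The strongest SETBP1 site held no TGACAG in its 500 bp. The bases from 100 bp before to 100 bp after its summit are shown because it is the strongest site of the set and carries no MEIS core but hexamers of SOX factors, HMG-box regulators of neural stem cells. Capitals mark CTTTGT and CATTGT, which are ACAAAG and ACAATG read on the opposite strand.
SETBP1 intron 2, strongest site, chr18:42324848-42325048, plus strand: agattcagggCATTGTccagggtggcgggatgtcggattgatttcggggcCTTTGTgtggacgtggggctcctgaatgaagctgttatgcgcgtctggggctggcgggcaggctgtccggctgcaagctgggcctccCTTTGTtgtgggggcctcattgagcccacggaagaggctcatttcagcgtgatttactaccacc
With a GC content of 53.6% over 500 bp, it was also the highest of the 22 sites, whose median was 40.4% (all sites 42%).

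SKOR1 (ENSG00000188779, chromosome 15 from 68112042 to 68126920, plus strand) encodes a SKI family corepressor expressed in the nervous system, and MAP2K5 (ENSG00000137764, from 67835041 to 68099455, plus strand) encodes a kinase of the ERK5 cascade. The genes are neighbours, and the same 4 sites fell in both windows, so they cannot be assigned to either gene by position alone. With windows of 100 kb, SKOR1 had 0 sites and MAP2K5 had 3.

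The strongest of the 4 lay between genes from 68233703 to 68234724, 116 kb downstream of the SKOR1 TSS and 112 kb from that of PIAS1. It ranked 274, and the replicates gave a −log10 p of 216 and 219 and a fold of 23.7 and 44. Its TGACAG is the first sequence printed above, with a GGAATG of TEAD factors 18 bp from the summit.

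The site in intron 7 of MAP2K5, from 67885117 to 67886675, had the largest ratio between the replicates of the 22 sites, in fold and in −log10 p. Replicate 1 gave it a −log10 p of 107 and a fold of 11.2, and replicate 2 gave 592 and 88.6. Within its own list it ranked 793 in replicate 1 and 109 in replicate 2, high in both, at percentiles of 97.8 and 99.8. The fold ratio of 7.90 was the highest of all 5169 sites, ahead of 6.41, while the next highest of the 22 sites had 3.74. The site was called in both replicates with summits 6 bp apart, and the cause of the difference was not tested. It is shown as the site with the highest ratio. Capitals mark TGTCA, the reverse complement of the shortened core TGACA, since the full hexamer was absent from its 500 bp.
MAP2K5 intron 7, chr15:67886036-67886236, plus strand: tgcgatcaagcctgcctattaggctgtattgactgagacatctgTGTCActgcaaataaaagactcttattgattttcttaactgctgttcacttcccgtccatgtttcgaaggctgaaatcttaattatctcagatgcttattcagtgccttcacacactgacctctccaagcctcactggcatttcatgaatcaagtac

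In intron 16 of MAP2K5, a site from 68007171 to 68008280 (rank 2102) had a −log10 p of 36.0 and 38.1, nearly equal, although the summits lay 121 bp apart, the farthest of the 22. It was the only one of the 22 with a composite PBX-MEIS sequence, a TGACAG directly preceded by the bases of PBX, found at 4.93% of all sites. The composite, in capitals, was centred 240 bp from the summit, at the edge of the window, and is shown with the bases around it.
MAP2K5 intron 16, chr15:68007468-68007527, minus strand: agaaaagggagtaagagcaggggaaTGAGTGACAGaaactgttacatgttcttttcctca
The weakest of the 4, in intron 13 from 67983650 to 67984447 (rank 4109), had 30.7 in replicate 1 and 17.8 in replicate 2. The nearest peak to the SKOR1 TSS seen in both replicates lay 18.5 kb downstream of it, with a −log10 p of 12 and 15.4, and was not in the list.

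TOX3 (ENSG00000103460, chromosome 16 from 52470329 to 52581714, minus strand), an HMG-box protein, had 1 site, in intron 1 and 34.4 kb downstream of the TSS. From 52546150 to 52547322 (rank 2601), it was stronger in replicate 1 by −log10 p, with 64.5 against 28.9, and nearly the same by fold, with 9.44 and 9.22. A peak 5.84 kb upstream of the TSS was seen in both replicates at 25.7 and 12.1 and was not listed. Taking as many of the strongest peaks of replicate 1 alone as there are sites gave 3 at TOX3, so the count depends on replicate 2. The intron 1 site is shown because it lacks the full hexamer and has 3 copies of TGACA or TGTCA, in capitals, within 100 bp of its summit.
TOX3 intron 1, chr16:52546514-52546714, plus strand: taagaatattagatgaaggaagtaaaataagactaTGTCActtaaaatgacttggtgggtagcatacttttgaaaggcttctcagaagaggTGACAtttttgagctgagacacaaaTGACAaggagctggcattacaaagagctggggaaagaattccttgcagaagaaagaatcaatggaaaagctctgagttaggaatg
TGACA on either strand was common, present in the 100 bp centred on the summit at 16 of the 22 sites (72.7%) and at 69.7% of all sites.

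PRMT6 (ENSG00000198890, chromosome 1 from 107599296 to 107610258, plus strand), a histone arginine methyltransferase, had 1 site, 188 kb upstream of its TSS from 107411303 to 107411995 (rank 3780). Replicate 2 was clearly higher here, with a −log10 p of 61.5 against 19.6 and a fold of 16.4 against 4.39, and the site had 4 copies of TGACAG, the most of the 22. In the other direction, 208 kb downstream and in intron 2 of NTNG1, a replicate 2 peak with a −log10 p of 73.3 overlapped one of 11.9 in replicate 1 and was not listed. The count at PRMT6 was 2 without replicate 1 and 0 when the IDR had to be at most 0.001. A stronger site lay outside the window, 303 kb upstream (rank 181, −log10 p 439 and 306).

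MYT1 (ENSG00000196132, chromosome 20 from 62733747 to 62873606, plus strand), a zinc finger transcription factor of developing neurons, was the only gene of the 10 with no site. Its strongest replicate 2 peak lay in intron 1, 12.7 kb downstream of the TSS, with a −log10 p of 19.6 and a fold of 7.40, and overlapped a replicate 1 peak of 7.53 and 2.84. The strongest replicate 1 peak of the window, at 7.56, was 373 bp from the TSS of DNAJC5 and had no partner in replicate 2. In number, its 10 replicate 1 peaks were near the median of 9 for like-length genes, and its 5 replicate 2 peaks were below the median of 10.5.

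PTPRD (ENSG00000153707, chromosome 9 from 8314246 to 10613002, minus strand), a receptor tyrosine phosphatase of neurons that acts in synapse formation, was the longest of the 10 with a body of 2299 kb. It held the most peaks, 31 in replicate 1 and 52 in replicate 2, of which 21 overlapped in each list, and yet only 2 sites. Genes of like length span 638 to 2474 kb, so most of the 200 are shorter. The stronger site, in intron 12 from 8651295 to 8652876 (rank 1789), had a −log10 p of 47.1 and 42.1 and a fold of 7.28 and 10.7. The weaker, in intron 11 from 8784795 to 8785386 (rank 5065), had 13.3 and 25.8 and was the weakest of the 22. Both carry TGACAG within 10 bp of the summit, as printed above. The count was 4 without replicate 1 and 1 without replicate 2, so each replicate moved it.

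The peaks of PTPRD were uneven along the gene. Dividing the body at its midpoint, a choice made after the map had been seen, 21 of 28 replicate 1 peaks and 30 of 42 replicate 2 peaks lay in the 3′ part. Of the 19 that overlapped between replicates, 16 lay there, as did both sites.

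BTBD9 (ENSG00000183826, chromosome 6 from 38136227 to 38607924, minus strand), a BTB domain adaptor of a cullin ubiquitin ligase, had 3 sites in its introns and 1 upstream. The strongest, in intron 8 from 38248612 to 38249858 (rank 2436), gave 54.7 (replicate 1) and 31.1 (replicate 2) for −log10 p, with TGACAG 1 bp from the summit. The upstream site, 85.6 kb from the TSS and in intron 3 of DNAH8 from 38692822 to 38693877 (rank 3686), had 45.9 and 20.1. By −log10 p, both were higher in replicate 1, whereas by fold the intron 8 site was nearly equal, with 8.93 and 9.18, and the upstream site had 7.67 and 6.58. The other 2 intron sites were among the weakest of the list. In intron 10, from 38159755 to 38160581 (rank 4641), the replicates gave 15.7 and 21.6. In intron 9, from 38203100 to 38203892 (rank 4856), they gave 14.5 and 20.9, so replicate 2 was higher at both. Only 1 of the 4 sites had an IDR no higher than 0.001.

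CRBN (ENSG00000113851, chromosome 3 from 3186312 to 3221411, minus strand) encodes cereblon, the substrate receptor of a ubiquitin ligase and the target of thalidomide. Its only site lay 214 kb upstream of the TSS, from 3434915 to 3436092 (rank 1625), and had a −log10 p of 63.5 and 46.6 and a fold of 9.35 and 12.2. The site carried TGACAG 32 bp from the summit and 2 copies of GGAATG. With windows of 100 kb, CRBN had 0 sites. A further peak 118 kb upstream was seen in both replicates at 9.19 and 20.01 and was not in the list.

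CCDC148 (ENSG00000153237, chromosome 2 from 159027585 to 159313265, minus strand), a coiled-coil protein, had a site in intron 11 from 159070667 to 159071643 (rank 2213), which also lies within the antisense gene CCDC148-AS1. The replicates gave a −log10 p of 38.9 and 34.5 and a fold of 7.20 and 9.36, with TGACAG 9 bp from the summit. Its other site, from 158789078 to 158790028 (rank 4046), lay 238 kb beyond the gene in the body of UPP2 and nearest to the TSS of ACVR1, with 18.1 and 35.8. The intron 11 site alone was counted with windows of 100 kb and at an IDR no higher than 0.001.

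**Figure D4:**
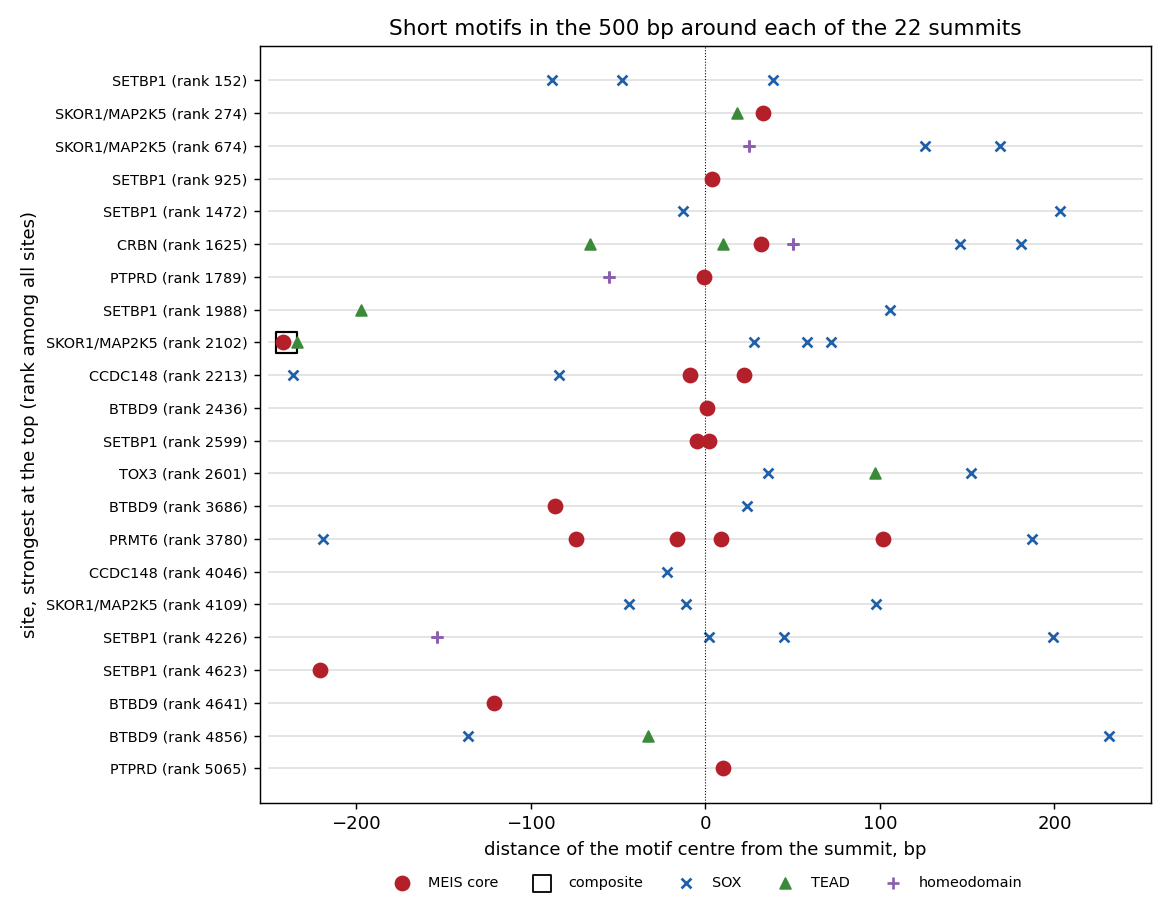
Position of short motifs relative to the summit (x axis, bp, negative toward lower coordinates) in the 500 bp window of each of the 22 sites, ordered by rank in the list; MEIS core is TGACAG, composite is a PBX-MEIS sequence, crosses stand for the SOX hexamers named in the text, the symbol of TEAD stands for its hexamer, and the plus sign for the homeodomain sequence. TGACAG gathers near the summit, with 9 of 13 sites having it within 50 bp, and the 9 sites without TGACAG all hold a SOX hexamer.

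The plot of motif positions covers both strands of each window. Of the SOX hexamers, ACAAAG was found at 13 of the 22 sites (all sites 52.6%). The other SOX hexamer, ACAATG, was found at 7 (all sites 39.9%). The TEAD hexamer GGAATG was found at 6 sites (all sites 38.2%). A homeodomain sequence, TAATTA, was found at 4 (all sites 18.2%). The share with GGAATG was 27.3% (Wilson 95% confidence interval 13.2 to 48.2), an interval that includes the share of all sites. The composite contains TGACAG, so the 1 site with it is counted under both. The form of the composite with T directly before the hexamer was found at 0 of the 22 (upper bound 14.9%, all sites 2.36%). A SOX hexamer was present at all 9 sites without TGACAG and at 5 of the 13 with it. This split was looked for after the values had been seen and was not tested. Over the whole list the shares were 73.2% of the sites without TGACAG and 69.4% of those with it. The strengths of both classes overlapped, with a median percentile of 52.9 for the sites with TGACAG (2.02 to 94.7) and 49.7 for those without (5.96 to 97.1). A match of letters is not a measured binding event, and its absence says only that the letters were not found in the window.

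For other genes of the disorder, counted in the same 250 kb windows, DACH1 had 7 sites, MEIS1 3, MEIS2 2, MDGA1 1 and NTNG1 1. As many or more were found in 3.5% of like-length genes for DACH1, as for SETBP1, and in 15.0% for MEIS1, 38.5% for MEIS2, 57.0% for MDGA1 and 73.5% for NTNG1. The NTNG1 count leaves out a strong site that the paper describes farther upstream of that gene. By its position and strength, that site is most likely the one of rank 181, 303 kb upstream of PRMT6, and not a second one. The paper reports MDGA1, NTNG1 and DACH1 among its MEIS1 targets from RNA, which these counts do not measure. From RNA and MEIS binding sites combined, it also predicts that MEIS1 regulates all of them directly. That prediction linked sites to genes over a longer distance than the 250 kb used here.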

How the data were processed

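MEIS ChIP was measured in 2 hNSC replicates, with 2 Input samples that the authors used as peak-calling background. Sample titles gave the groups. Per the labels, reads of 36 bp pairs were trimmed (cutadapt 1.16), mapped to GRCh37 (bowtie2 2.3.0), filtered for mapping quality (samtools 1.2) and stripped of duplicates (Picard 2.15.0), which leaves sites in repeated sequence undercounted. The authors called peaks in each replicate against input with MACS2 (version not given in the sources used here) at a p-value of 0.01. They combined these peaks with IDR 2.0.3 to find those reproducible between the replicates.

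The deposited peak lists give fold enrichment, a linear ratio over input at the summit, and for each peak its p and q as −log10. For reproducible sites, the deposited list holds a −log10 p, a scaled score and the −log10 of the global IDR. Its 8 columns of per-replicate values were not used here. Each site's replicate values were those of the strongest overlapping peak, and at all 22 sites the −log10 p of the list equalled the lower of them. The list's −log10 p gave the rank and percentile.

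Positions used summits, GENCODE 44 mapped to GRCh37, and canonical transcripts for TSS and introns. Overlap was at least 1 bp. Motifs were searched on both strands in 500 bp of reference sequence. Like-length genes were the 200 nearest in body length, the 10 genes excluded. Wilson intervals cover counting error alone, depth is unknown, and p-values were not computed, since 1 condition offers no comparison between groups. All 10 genes are named, with every site where a gene has at most 6, and otherwise the 5 strongest and the range of the rest. Other genes are named by proximity, or as comparison genes of the study. The genes and lists were chosen with earlier results of these data known, and TGACA, the division of PTPRD and the link of SOX hexamers with TGACAG were added after the values had been seen. The counting was tested on simulated data. Python 3.11.15, numpy 2.4.6, pandas 2.3.3 and matplotlib 3.10.9 were used.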

Additional observations from a re-analysis of the deposited data

How the results depend on the processing

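The main values are 22 sites, 9 genes with a site, 8 genes above the like-length median, a median strength percentile of 51.3, 142 and 190 replicate peaks, 57.7% of replicate 1 peaks overlapping, and 59.1% of sites with TGACAG. A count was taken as near where it differed by at most 1.5 times, a share where it lay in the Wilson interval of the main share, and the percentile where it moved by less than 6.54, the SD of the single-replicate values. Of 42 alternative values, 31 were near by these limits and 11 were not. The percentile limit was taken from the 2 single-replicate percentiles, so it was no independent check of those 2, which count among the 31. Those within 1.5 times include 6 genes with a site (100 kb windows), 31 sites (500 kb), 204 replicate 1 peaks (500 kb), and 127 and 269 replicate 2 peaks (100 and 500 kb). At an IDR of 0.001 or less there were 13 sites, 5 genes above the median and a median percentile of 65.4, with the stronger sites kept by construction. Windows of 100 kb gave 4 genes above the median and 94 replicate 1 peaks. A −log10 p of at least 5 left 82 and 103 replicate peaks, with 80.5% of the former overlapping. Requiring summits within 100 bp gave 43.0%. Ranking by the lower fold gave a percentile of 58.6; the cause was not tested. Motif windows of 1000 bp gave 86.4% of sites with TGACAG, since wider windows hold more hexamers. Taking as many of the strongest peaks of a single replicate gave 21 to 24 sites, 9 genes with a site (both 9), 7 to 9 genes above the median, a percentile of 46.1 to 55.4 and TGACAG at 50% to 52.4% of sites. Of 50 alternative counts for single genes, 34 were within 1.5 times, such as 4 to 3 for BTBD9 and 2 to 3 for CCDC148, and 16 were not, 4 of them when a replicate was left out (PRMT6, TOX3 and PTPRD). No paired analysis was possible because peak values exist for the ChIP group alone, so no other group with the same replicate numbers can be set against it. With 2 replicates, 10 genes and unknown depth, a gene without a site cannot be told from one with binding under the threshold.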

Other observations

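Between 250 and 500 kb from the gene bodies lay a further 9 sites, at BTBD9 (1), TOX3 (2), PRMT6 (2), CRBN (2), MYT1 (1) and CCDC148 (1). Some of these were already counted at comparison genes. The BTBD9 site is the MDGA1 site, and 1 of the PRMT6 sites is the NTNG1 site, in intron 5 of NTNG1. The site nearest to MYT1 lay in ZBTB46, 272 kb from the gene body and 1.10 kb from the ZBTB46 TSS, with 26.1 (replicate 1) and 33.4 (replicate 2) as −log10 p, and had 2 copies of TGACAG. Upstream of TOX3, sites at 266 and 417 kb from the TSS had a −log10 p of 33.1 and 34.6, and of 41.9 and 25.8, in replicates 1 and 2. The site 303 kb upstream of PRMT6 had a fold of 36.3 and 39.8 and no TGACAG in its window.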
